A study of Mus musculus with 6 samples.

Results

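Tnfrsf22, Tnfrsf23 and Tnfrsf26 are 3 neighbouring genes of the tumour necrosis factor (TNF) receptor superfamily on mouse chromosome 7, and all 3 were found by symbol among the 54087 gene rows of the count files. Tnfrsf26 was chosen because of its large rise in the Dnmt3A KO/KO libraries, so its difference between genotypes is given as a description with no test, and Tnfrsf22 and Tnfrsf23 were taken for their place beside it. RNA came from germ cells of male C57BL/6 mice at 10 days post partum (dpp), sorted for bright and medium Id4-GFP signal, a reporter that both groups carry. The gate is said in the labels to approximate spermatogonial stem cells. There were 3 Dnmt3A WT/WT and 3 Dnmt3A KO/KO libraries, and they serve to compare the RNA of these cells between genotypes of this DNA methyltransferase gene, whose product places new methyl groups on DNA. The deleted part of the gene, any Cre driver and whether replicates came from separate mice are not given in what was used here, so p-values cover only the spread among these libraries, which may be technical.

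Receptors of the TNF superfamily bind trimeric ligands through cysteine-rich repeats outside the cell. The TRAIL receptor Tnfrsf10b carries an intracellular death domain that recruits Fadd and caspase-8 and starts apoptosis. Tnfrsf22 and Tnfrsf23 are known in the mouse as decoy TRAIL receptors, which bind the ligand without a functional death domain, and Tnfrsf26 is a related short receptor. The genes lie at the edge of the distal chromosome 7 imprinted domain, where one parental copy of several genes is silenced, in part through the noncoding RNA Kcnq1ot1.

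On GRCm38, Tnfrsf26 lies at chr7:143607659-143628722, Tnfrsf22 at chr7:143634806-143649661 and Tnfrsf23 at chr7:143665809-143685872, all protein coding and on the minus strand, so that the cluster spans 78.2 kb. The gap between the annotated genes is 6.08 kb from Tnfrsf26 to Tnfrsf22 and 16.1 kb from there to Tnfrsf23. An antisense gene, E230032D23Rik, runs on the plus strand from inside Tnfrsf26 to inside Tnfrsf23. Its exons cover 107 of the 3218 exon bases of Tnfrsf26 (3.33%), 0 of Tnfrsf22 and 164 of the 3962 of Tnfrsf23 (4.14%). The library kit is stranded but the setting for strand in the counting step is not stated in the notes used here, and the antisense gene, which no row matched by symbol, was not analysed here.

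The coding sequences show how far reads of the 3 genes can be told apart. The longest annotated open reading frames hold 204 codons in Tnfrsf26, 198 in Tnfrsf22 and 176 in Tnfrsf23. Tnfrsf22 and Tnfrsf23 were identical at 480 of 531 aligned coding bases (90.4%). Tnfrsf26 was identical to Tnfrsf22 at 325 of 520 (62.5%) and to Tnfrsf23 at 283 of 482 (58.7%). The stretch below holds the longest exact run shared by the coding sequences of Tnfrsf22 and Tnfrsf23, 102 bases, with the 30 bases before it and the aligned part of Tnfrsf26. It is shown from coding base 391 to 522 in Tnfrsf22, 361 to 492 in Tnfrsf23 and 325 to 458 in Tnfrsf26, on the minus strand of chromosome 7 and counted from the start codon. Capitals mark bases that differ from Tnfrsf22 or have no partner in it.
Tnfrsf22: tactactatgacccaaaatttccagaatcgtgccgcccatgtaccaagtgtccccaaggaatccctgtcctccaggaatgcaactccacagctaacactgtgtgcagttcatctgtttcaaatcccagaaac
Tnfrsf23: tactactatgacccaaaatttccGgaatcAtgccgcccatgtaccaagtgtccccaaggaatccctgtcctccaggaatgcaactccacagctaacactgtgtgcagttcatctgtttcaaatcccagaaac
Tnfrsf26: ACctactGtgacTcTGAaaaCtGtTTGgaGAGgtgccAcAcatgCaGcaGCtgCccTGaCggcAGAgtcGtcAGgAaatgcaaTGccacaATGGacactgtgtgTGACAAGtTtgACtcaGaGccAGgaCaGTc

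Tnfrsf23 differs from Tnfrsf22 at 2 of the 132 bases shown, and 55 of the 134 bases of Tnfrsf26 are in capitals. Over all annotated transcripts, 17.3% of the 50-base words of Tnfrsf22 also occur in Tnfrsf23 and 18% of those of Tnfrsf23 in Tnfrsf22. Tnfrsf26 shares no such word with either. The treatment of reads with several positions is not stated in the notes used here, so the split of counts between Tnfrsf22 and Tnfrsf23 is uncertain, while Tnfrsf26 has no copy of that kind among these genes.

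Dnmt3a, the gene named in the genotypes, had WT/WT levels of 215, 193 and 188 CPM (counts scaled to the library's gene total and TMM factor) and KO/KO levels of 90.2, 104 and 99.5 CPM, with no overlap. The means were 199 and 98.0 CPM (log2 fold change -1.02, SE 0.09, edgeR adjusted p = 2.22e-04), so much of the RNA counted to the gene was still present in KO/KO. With the deleted part not given, the count over the whole gene does not tell how much of it is intact transcript. Gene counts per library lay between 42681201 and 61749155, and 1 CPM stood for between 40.8 and 64.5 counts. Of 21314 genes tested with the edgeR quasi-likelihood test, 3144 (14.8%) had a Benjamini-Hochberg adjusted p under 0.05, 1776 (8.33%) higher and 1368 (6.42%) lower in KO/KO. Leaving out WT/WT replicate 1, 2 or 3 left 1735, 1374 and 1555 calls, and leaving out KO/KO replicate 1, 2 or 3 gave 3365, 2931 and 2659. No pair of libraries agreed within counting noise (chi-square per degree of freedom of at least 12.4). This value was 12.4 to 14.8 for pairs of WT/WT libraries and 36.3 to 49.2 for pairs of KO/KO libraries. For pairs across genotypes it was 34.5 to 90.0, a range that overlaps that of the KO/KO pairs. Of the germ cell markers Ddx4, Dazl, Id4, Gfra1, Zbtb16 and Sall4, the summed level was between 1635 and 1746 CPM in WT/WT and between 1623 and 1820 CPM in KO/KO, but single markers moved in both directions. Id4, whose reporter set the gate, and Gfra1 were higher in KO/KO (log2 fold changes 1.89 and 1.01, edgeR adjusted p = 8.14e-04 and 0.00127), and Zbtb16 and Sall4 were lower (-0.56 and -0.36, adjusted p = 0.00430 and 0.0485). Ddx4 (0.24, adjusted p = 0.0643) and Dazl (-0.30, adjusted p = 0.0948) did not pass. The part of these marker differences in the levels of the cluster was not tested.

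Tnfrsf26 had few reads in wild-type cells and was the most abundant gene of the cluster in KO/KO. The wild-type libraries held 8, 11 and 9 counts of it, and the KO/KO libraries 203, 292 and 351. In CPM these were 0.183, 0.228 and 0.221 against 4.54, 5.92 and 5.44. The 3 WT/WT values lay close together, KO/KO replicate 1 was the lowest of its group, and the genotypes were far from overlapping. The log2 fold change was 4.64 (SE 0.27, n = 3 per genotype), or 24.9-fold, and it stayed between 4.54 and 4.74 when any 1 library was left out. By size it had rank 38 among all 1776 genes called higher. Among the 1301 of them averaging a log2 CPM of 1 or more, predicted and clone symbols aside, it had rank 5, between Rhox5 (4.84) and Hoxc9 (4.13). Both ranks restate the rise for which Tnfrsf26 was chosen, and it reached that average only through its KO/KO libraries. They describe its size, and nothing is read from its place among called genes.

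Tnfrsf22, the decoy TRAIL receptor next to it, was the gene of the cluster with the most reads in wild-type cells and showed a smaller difference. Its counts were 52, 57 and 46 in WT/WT and 102, 114 and 78 in KO/KO, or 1.19, 1.18 and 1.13 CPM against 2.28, 2.31 and 1.21 CPM. KO/KO replicates 1 and 2 stood apart from the wild type, and replicate 3 lay just above the highest WT/WT library. The log2 fold change was 0.72 (SE 0.31, 95% interval 0.02 to 1.42, not adjusted for the number of genes tested). Its unadjusted edgeR p was 0.0445, and it did not pass after adjustment over all genes tested (adjusted p = 0.158). Without KO/KO replicate 3 it was 0.99 and passed (adjusted p = 0.0378). KO/KO replicate 3 had the second highest Tnfrsf26 level, so the 2 genes did not follow each other across the KO/KO libraries: there were 1.99, 2.56 and 4.50 Tnfrsf26 counts per Tnfrsf22 count in KO/KO replicates 1 to 3, against 0.154, 0.193 and 0.196 in WT/WT.

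Tnfrsf23, the other decoy TRAIL receptor, was barely detected in either genotype. It had 7, 0 and 3 counts in WT/WT and 12, 22 and 9 counts in KO/KO, too few for the filter on low counts, so of the 3 genes only Tnfrsf22 and Tnfrsf26 entered the fit in which 14.8% of all genes were called. Tnfrsf26 reached that filter through its KO/KO libraries and was chosen on this contrast, so no count of called members is given. In CPM the values were 0.160, 0 and 0.0735 against 0.268, 0.446 and 0.140, and the genotypes overlapped. The count of 0 allows up to 0.0623 CPM (3 counts, counting error only). The log2 ratio of the mean CPM was 1.87 and the exact two-sided permutation test gave p = 0.200, where 0.1 is the smallest that 3 against 3 libraries allow. Leaving out WT/WT replicate 1 gave a log2 ratio of 2.95, and leaving out replicate 2 gave 1.28 for the WT/WT and 1.40 for the KO/KO library. In the edgeR fit without a filter the log2 fold change was 1.84 (SE 0.94, adjusted p = 0.234). Because Tnfrsf22 and Tnfrsf23 share sequence, their counts were also summed: the sum was 1.35, 1.18 and 1.20 CPM in the wild type against 2.55, 2.76 and 1.35 CPM (log2 fold change 0.83, SE 0.32, edgeR adjusted p = 0.112).

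**Figure D1:**
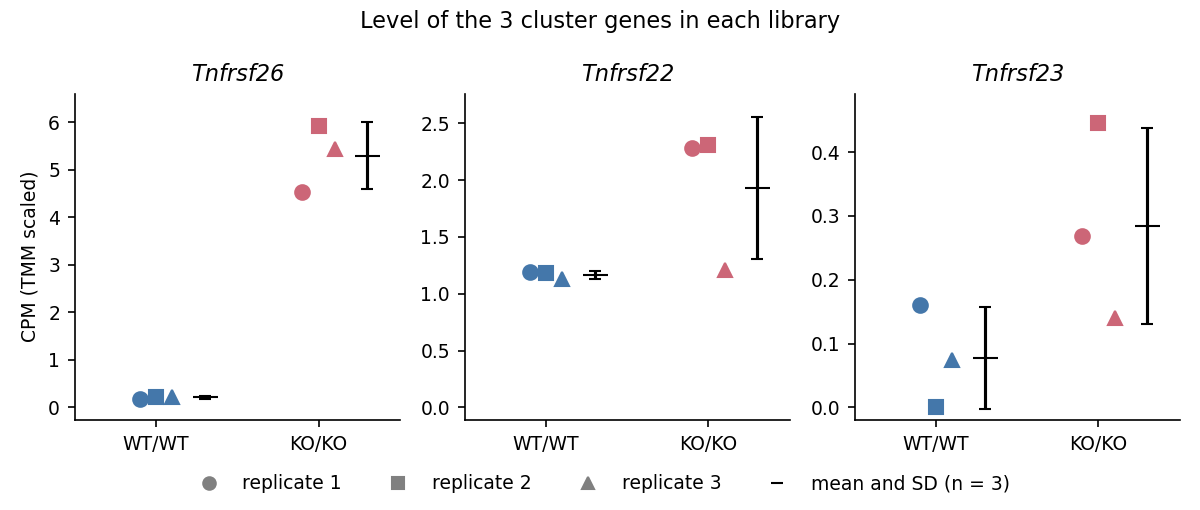
CPM (linear axis, a scale of its own for each gene) of Tnfrsf26, Tnfrsf22 and Tnfrsf23 in the 3 WT/WT (blue) and 3 KO/KO (red) libraries, with symbols for the replicate number and black bars for the mean and SD. Tnfrsf26 goes from about 0.211 to 5.30 CPM, Tnfrsf22 stays at 1.21 CPM in KO/KO replicate 3, and Tnfrsf23 stays under 0.446 CPM or at it in every library.

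The RefSeq table (GRCm38.p6) holds a promoter for Tnfrsf23 and none for Tnfrsf22 or Tnfrsf26, so nothing is read from it about those genes. The 250 bases before the Tnfrsf23 start, chr7:143685876-143686125 on the minus strand, are shown. CpG dinucleotides, in capitals, are the main sites at which Dnmt3a methylates DNA.
Tnfrsf23 promoter: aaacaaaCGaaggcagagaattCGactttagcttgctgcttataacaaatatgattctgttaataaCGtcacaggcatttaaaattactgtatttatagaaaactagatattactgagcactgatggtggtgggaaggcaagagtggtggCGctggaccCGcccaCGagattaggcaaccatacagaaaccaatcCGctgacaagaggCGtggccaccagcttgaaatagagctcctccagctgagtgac

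It holds 8 CpG, and 43% of the 32851 promoters of the table, whose median is 6, hold as many or more in the same 250 bases, counted as the letters CG. Methylation was not measured in these files.

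The nearest analysed gene on each side of the cluster did not pass the test. Cars, a tRNA synthetase gene 7.57 kb beyond Tnfrsf26, had 44.5, 47.8 and 52.8 CPM in the wild type against 52.7, 53.4 and 53.5 CPM (log2 fold change 0.14, 95% interval -0.07 to 0.35, edgeR adjusted p = 0.366). Osbpl5, a lipid transfer protein gene 2.89 kb beyond Tnfrsf23, stood at 4.75, 6.00 and 4.34 CPM against 5.65, 7.03 and 7.85 CPM (log2 fold change 0.44, SE 0.20, adjusted p = 0.170). Both sets of values overlapped between genotypes.

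Within 1 Mb of the cluster, 25 other genes were tested, of which 3 were higher and 2 lower in KO/KO (20.0%, beside 14.8% of all genes), with a median log2 fold change of -0.03 against 0.00 over all genes. The higher ones were Igf2, a fetal growth factor gene (8.56 ± 0.927 to 13.4 ± 1.34 CPM, SD, n = 3 each), its antisense gene Igf2os, and the chloride channel gene Ano1 (7.56 ± 1.18 to 12.8 ± 1.97 CPM). Igf2 and Igf2os overlap on opposite strands, so their reads may not be separate. The lower ones were Ascl2, a transcription factor gene of the placenta and intestine (6.83 ± 0.384 to 4.06 ± 0.906 CPM), and Phlda2, a maternally expressed growth inhibitor (1.30 ± 0.633 to 0.414 ± 0.203 CPM). The 3 of these nearest the ends of the window lie over 900 kb from the cluster by the gene models: Igf2 at 941, Igf2os at 937 and Ano1 at 903 kb. Within 0.5 Mb only Phlda2 of 13 tested genes passed, and it did not pass without WT/WT replicate 2 (adjusted p = 0.228) or 3 (adjusted p = 0.104) or KO/KO replicate 2 (adjusted p = 0.0984) or 3 (adjusted p = 0.107). When 1 library was left out, Ascl2 passed only without KO/KO replicate 1 (edgeR adjusted p between 0.0539 and 0.115 otherwise). Igf2 and Igf2os did not pass when WT/WT replicate 1, 2 or 3 was left out (adjusted p between 0.0543 and 0.105). Ano1 did not pass without WT/WT replicate 2 (adjusted p = 0.0977) or 3 (adjusted p = 0.0741). Without WT/WT replicate 1 there were 2 calls within 1 Mb and without KO/KO replicate 2 or 3 there were 3. Without WT/WT replicate 2 or 3 edgeR called 0, with 8 of 28 and 9 of 29 tested genes at an unadjusted p under 0.05. With all libraries 9 of the 25 had such a p, beside 6284 of all 21314 genes tested.

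**Figure D2:**
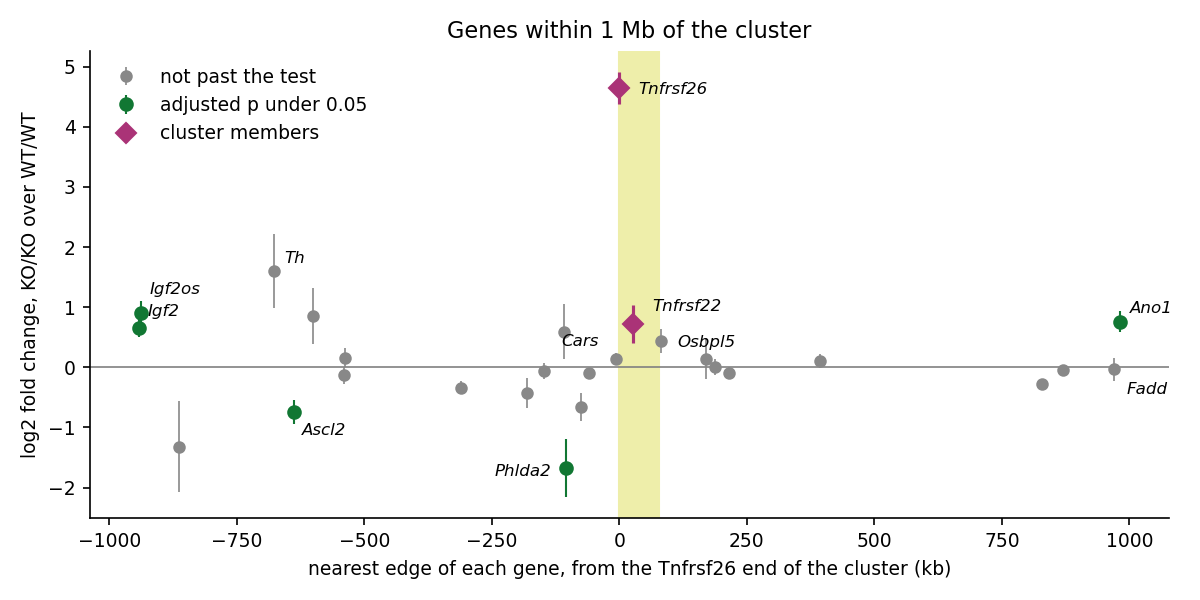
Log2 fold change (KO/KO over WT/WT, bars are SE) of the tested genes within 1 Mb, placed by the edge nearest the cluster in kb from its Tnfrsf26 end, with the cluster shaded. Tnfrsf26 at 4.64 stands above every other gene shown, the next being Th at 1.60, which did not pass the test (adjusted p = 0.118). Th had 3, 9 and 8 counts in WT/WT and 10, 22 and 45 in KO/KO. Like Tnfrsf26, it reached the filter on low counts through its KO/KO libraries, so nothing is read from this order.

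Of 21 genes listed for the distal chromosome 7 domain and its edge, 18 were tested, and 2 were higher and 2 lower, beside 14.8% called over all genes. H19, the noncoding RNA imprinted together with Igf2, had 49.2, 48.1 and 41.0 CPM in the wild type against 63.5, 66.8 and 98.0 CPM (log2 fold change 0.72, SE 0.16, edgeR adjusted p = 0.0158). The others were Igf2 (0.65, SE 0.15), Ascl2 (-0.75, SE 0.20) and Phlda2 (-1.67, SE 0.48), which are also calls of the 1 Mb window. All listed genes but H19 lie in that window, so the list and the window are not separate results. Kcnq1ot1 had a log2 fold change of -0.34 (adjusted p = 0.0690), and the cell cycle inhibitor gene Cdkn1c one of -0.06 (adjusted p = 0.810). The list had 2 calls without WT/WT replicate 1, KO/KO replicate 2 or KO/KO replicate 3. Without WT/WT replicate 2 or 3 edgeR called 0, with 5 and 7 of 20 tested genes at an unadjusted p under 0.05. With all libraries 6 of the 18 had such a p, beside 6284 of all 21314 genes tested.

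The ligand of the decoy receptors had at most 3 counts in any library, while the signalling receptor was detected in all of them. Tnfsf10, which encodes TRAIL, had 0, 2 and 0 counts in WT/WT and 3, 1 and 0 counts in KO/KO and was not tested. Tnfrsf10b, the death receptor for TRAIL, was at 13.0, 13.5 and 15.1 CPM in the wild type against 17.1, 13.4 and 13.0 CPM, which overlap (log2 fold change 0.07, 95% interval -0.26 to 0.40, edgeR adjusted p = 0.808). Tnfrsf11b, a secreted decoy receptor that also binds TRAIL, stood at 1.35 ± 0.108 and 1.08 ± 0.179 CPM (SD, n = 3 each, 95% interval of the log2 fold change -0.94 to 0.32, adjusted p = 0.514).

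Of the 16 genes listed for the TRAIL pathway 15 were tested and 1 passed, a rise, with a median log2 fold change of 0.04. That is 6.67%, beside 14.8% over all genes, and 3 had an unadjusted p under 0.05, beside 6284 of all 21314 genes tested. The gene was Birc2, an inhibitor of apoptosis that acts at TNF receptor complexes, with wild-type values of 61.0, 54.1 and 52.1 CPM against 66.0, 81.5 and 70.6 CPM (log2 fold change 0.38, SE 0.11, edgeR adjusted p = 0.0380). It no longer passed when WT/WT replicate 1 (adjusted p = 0.0578), 2 (adjusted p = 0.160) or 3 (adjusted p = 0.154) or KO/KO replicate 2 (adjusted p = 0.0687) was left out. The related inhibitor Birc3 (0.56, adjusted p = 0.0772), the kinase gene Ripk1 (-0.29, adjusted p = 0.129) and the caspase inhibitor Xiap (0.15, adjusted p = 0.260) did not pass. The adaptor Fadd, whose gene lies 891 kb from the cluster on the same chromosome, stood at 6.98 ± 0.385 and 6.82 ± 1.58 CPM (log2 fold change -0.03, 95% interval -0.47 to 0.40), and Casp8, the initiator caspase, had a log2 fold change of 0.22 (95% interval -0.30 to 0.74).

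**Figure D3:**
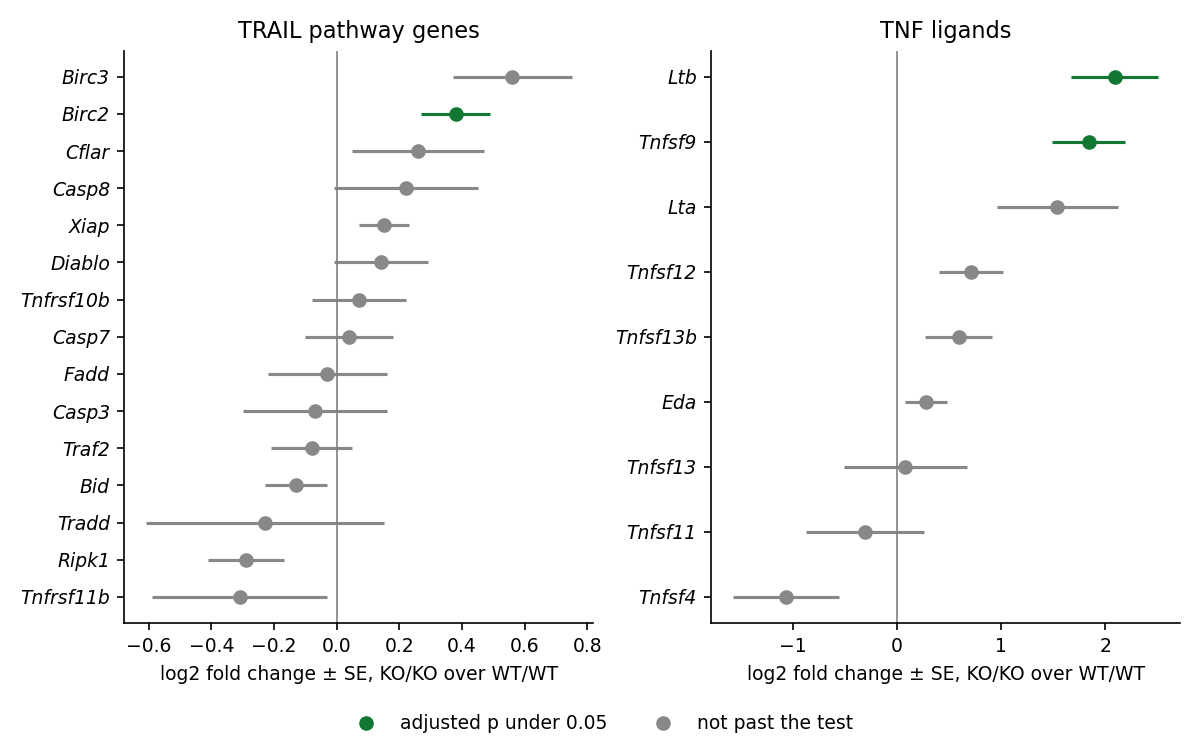
Log2 fold changes with SE (KO/KO over WT/WT, edgeR) of the tested TRAIL pathway genes on the left and the tested TNF ligands on the right, green where the adjusted p was under 0.05. Birc2 is the only green gene on the left, and Ltb and Tnfsf9 are the green ones on the right.

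Among the other receptors of the superfamily, Edar alone passed the test. Of 25 listed receptors outside the cluster 17 were tested and 1 passed, a rise (5.88%, beside 14.8% over all genes), with a median log2 fold change of 0.08. Edar, the ectodysplasin receptor of developing hair and teeth, had wild-type values of 1.28, 1.18 and 0.588 CPM against 3.04, 3.02 and 5.57 CPM (log2 fold change 1.93, SE 0.36, edgeR adjusted p = 0.00747). The genotypes did not overlap, and the call held without any 1 library (adjusted p between 0.00566 and 0.0324). Tnfrsf1a, Tnfrsf12a and Tnfrsf1b, the tested receptors with the next smallest p, had log2 fold changes of 0.29, -0.48 and 0.45 (adjusted p between 0.261 and 0.295). Tnfrsf18, named after its values were seen, had 1, 0 and 0 counts in WT/WT and 1, 10 and 21 in KO/KO and did not pass the filter. It is a second called receptor in the fits with no filter and without KO/KO replicate 1, the KO/KO library with 1 count. It can enter a fit only through the KO/KO libraries where it is high, so nothing is read from those calls.

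Levels of different genes were compared as CPM per kb of exon. On this scale Tnfrsf26 stood at 0.0654 ± 0.00762 in WT/WT, nineteenth of the 28 receptors, between Tnfrsf13c (0.0901 ± 0.0470) and Tnfrsf9 (0.0463 ± 0.0131), and at 1.65 ± 0.218 in KO/KO, the fourth (SD, n = 3 each). There its neighbours in the order, Tnfrsf4 (1.70 ± 0.162) and Relt (1.60 ± 0.136), did not differ from it beyond the spread, and Tnfrsf10b (2.66 ± 0.420) and Tnfrsf1a (6.07 ± 0.652) lay above. Tnfrsf22 stood at 0.277 ± 0.00793 and 0.458 ± 0.149, and Tnfrsf23 at 0.0196 ± 0.0202 and 0.0718 ± 0.0388. The exon lengths come from GENCODE M21, which may not be the annotation used for counting.

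**Figure D4:**
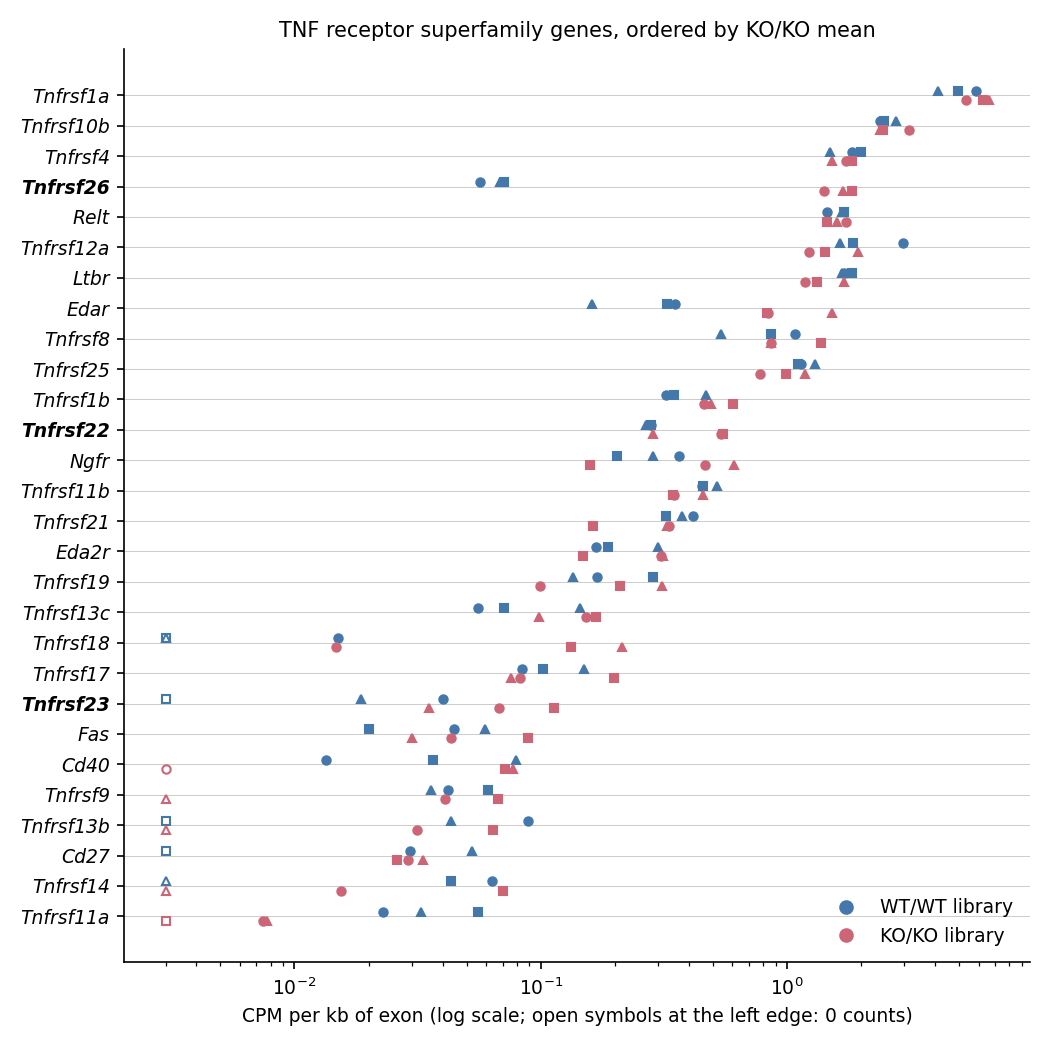
CPM per kb of exon (log axis) of the 28 TNF receptor superfamily genes in each WT/WT (blue) and KO/KO (red) library, ordered by the KO/KO mean, with the 3 cluster genes in bold and open symbols for libraries with 0 counts. Tnfrsf26 and Edar are the genes with a KO/KO mean over 1 CPM per kb whose blue and red points lie apart. For Edar that mean is 1.07, from libraries at 0.835, 0.830 and 1.53.

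Of 18 TNF family ligands 9 were tested and 2 passed, both rises (22.2%, beside 14.8% over all genes). The median log2 fold change of the 9 was 0.59, against 0.00 over all genes. Ltb, a subunit of the lymphotoxin heterotrimer, had 0.251, 0.228 and 0.294 CPM in the wild type against 0.760, 1.52 and 1.02 CPM (log2 fold change 2.09, SE 0.42, edgeR adjusted p = 0.00997). Tnfsf9, the 4-1BB ligand gene, stood at 0.342, 0.436 and 0.294 CPM against 1.25, 1.09 and 1.52 CPM (log2 fold change 1.84, SE 0.35, adjusted p = 0.00837). Neither overlapped between genotypes, both were at low levels, and Ltb did not pass when WT/WT replicate 2 was left out (adjusted p = 0.0550). Lta, the other lymphotoxin gene, and Tnfsf12, which encodes TWEAK, had log2 fold changes of 1.54 and 0.71 (adjusted p = 0.109 and 0.164). Lta reached the filter on low counts through its KO/KO libraries (11, 5 and 9 counts in WT/WT against 16, 19 and 59). Tnfsf4 reached it through its WT/WT libraries (15, 22 and 13 counts against 10, 6 and 12, log2 fold change -1.07). Nothing is therefore read from the median of the 9 ligands. With a filter of 1 CPM in 3 libraries only 4 ligands were tested and Tnfsf9 was the one called.

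TNF superfamily genes are used by blood cells, and markers of other cells were read beside these results. In a bulk sample, fewer cells of a type and less RNA per cell cannot be told apart. The counts of called markers stand beside 8.33% of all genes called higher. Of 9 lymphocyte markers 3 were tested and 1 rose, the B cell receptor gene Cd79a (14, 11 and 9 counts against 48, 94 and 47). Like Tnfrsf26, Cd79a reached the filter on low counts through its KO/KO libraries, so nothing is read from its call. The T cell receptor complex gene Cd3e had all KO/KO libraries below WT/WT (32, 51 and 50 counts against 13, 20 and 34) and did not pass (log2 fold change -1.28, edgeR adjusted p = 0.0592). The summed level of the 9 was between 1.28 and 2.03 CPM in WT/WT and between 1.33 and 2.86 CPM in KO/KO, Cd3g, Cd4, Cd8a and Nkg7 had at most 3 counts in any library, and Ptprc, which marks all leukocytes, had 5, 18 and 17 counts in WT/WT and 11, 10 and 1 in KO/KO. Of 6 macrophage markers 1 was tested and rose, the lysosomal gene Cd68, and the sums were between 1.30 and 1.94 CPM and between 4.11 and 4.95 CPM. Cd68 alone averaged 1.48 and 4.07 CPM, so these sums mostly restate that gene. Itgam had 4, 6 and 4 counts against 5, 24 and 9, which overlap in CPM, and was not tested. Adgre1, Csf1r, Lyz2 and C1qa had at most 4 counts in any library. Of 5 endothelial markers 4 were tested and 2, Cdh5 and Kdr, rose, and Emcn had at most 6 counts. The sums were between 18.3 and 24.7 CPM in WT/WT and between 67.3 and 105 CPM in KO/KO. Cdh5 averaged 6.53 and 51.7 CPM and Kdr 8.48 and 27.5 CPM, so the rise of these sums mostly restates Cdh5 and Kdr. The other tested endothelial markers, Pecam1 and Tek, had log2 fold changes of 0.16 and -0.18 (adjusted p = 0.754 and 0.635). Sertoli markers summed to between 322 and 527 CPM in WT/WT and between 327 and 482 CPM in KO/KO, Leydig markers to between 6.27 and 15.6 and between 3.53 and 7.21 CPM, and myoid markers to between 4.26 and 17.3 and between 7.68 and 10.5 CPM. The part of these cells in the levels of the cluster was not tested.

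The genes whose pattern was most like that of Tnfrsf26 were sought among 11815 tested genes averaging a log2 CPM of 1 or more, predicted and clone symbols aside, by the root mean square difference of mean-centred log2 CPM over the 6 libraries. The nearest were the homeobox gene Hoxc9 (0.33), the immunoglobulin family gene Igdcc3 (0.34), the serine protease gene Prss45 (0.42), the lymphocyte adhesion gene Cd2 (0.54) and the zinc transporter gene Slc39a4 (0.54). Hoxc9 had 0.320, 0.395 and 0.221 CPM in the wild type against 4.11, 6.20 and 6.26 CPM. Igdcc3 was much more abundant, at 2.35, 3.39 and 2.06 CPM against 61.6, 84.2 and 92.4 CPM. Prss45 stood at 0.251, 0.270 and 0.319 CPM against 2.66, 5.19 and 4.62 CPM. In each of these genes, as in Tnfrsf26, KO/KO replicate 1 was the lowest of the KO/KO libraries and lay above every WT/WT library. The measure rewards a rise of the same size, so it selects from the genes with the largest rises.

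**Figure D5:**
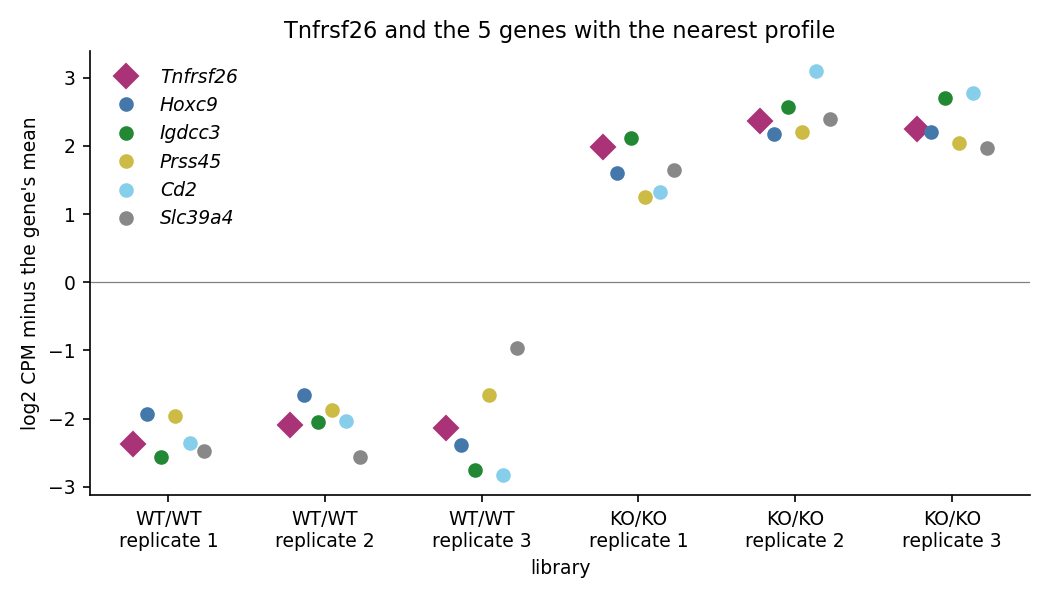
Log2 CPM minus the mean of each gene over the 6 libraries, by library, for Tnfrsf26 (diamonds) and the 5 genes with the nearest profile (circles). All 6 genes lie below 0 in every WT/WT library and above 0 in every KO/KO library, and Slc39a4 in WT/WT replicate 3 is the point farthest from Tnfrsf26.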

How the data were processed

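For each of 6 libraries the deposited table lists unnormalized counts by gene and repeat family. The submitters' processing notes name STAR (2.7.0a), featureCounts (1.5.1) and mm10, and do not state annotation release, strand setting or treatment of multiply placed reads. Of 55292 rows, 1205 repeat family rows were left out. Gene counts were fitted with the edgeR 4.0.16 quasi-likelihood test in R 4.3.3 (TMM factors, filterByExpr, genotype as the only term, two-sided, Benjamini-Hochberg over all genes tested, threshold 0.05). SE is the size of the log2 fold change over the square root of F, and 95% intervals use the t quantile at 9.75 degrees of freedom. Positions and exon lengths came from GENCODE M21 on GRCm38, the assembly of mm10 (28418 gene rows matched by symbol), coding sequences from its transcripts, and the promoter from RefSeq. Alignments used Biopython 1.88. Alternatives were RLE and upper quartile factors, other filters, DESeq2 1.42.0, other windows, a block for the replicate number and fits that lack 1 library.

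The members and lists were chosen with earlier results of these data known. Named were the 3 members, Dnmt3a, the nearest analysed gene on each side, called genes of the window and the chromosome 7 list, the 4 smallest p of each other list, Tnfsf10, Tnfrsf10b and Tnfrsf11b, the 5 nearest profiles, and markers. Other genes serve as context.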

Additional observations from a re-analysis of the deposited data

How the results depend on the processing

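The rise of Tnfrsf26 (4.64 on the log2 scale) lay between 4.54 and 4.74 in all alternatives, and that of Tnfrsf22 (0.72) between 0.57 and 0.99, with a pass only without KO/KO replicate 3 (0.99, adjusted p = 0.0378). Dnmt3a stayed lower and called in all of them (-1.06 to -0.95). The ratio of Tnfrsf23 ranged from 1.28 to 2.95 when 1 library was left out. Leaving out 1 library gave between 1374 and 3365 calls over all genes, 0 to 6 among the neighbours within 1 Mb, 0 to 5 in the distal chromosome 7 list, 0 to 1 in the TRAIL list, 1 to 2 among the ligands and 1 to 2 among the receptors. Without a filter 2 of 25 receptors were called, and with 1 CPM in 3 libraries 1 of 4 ligands. DESeq2 called 2 TRAIL pathway genes, Birc2 and Birc3, and edgeR with the replicate block 0, with 2 at an unadjusted p under 0.05. In the main edgeR fit 6284 of 21314 genes had such a p. A window of 0.5 Mb held 1 called neighbour of 13 tested and one of 2 Mb held 12 of 44, beside 14.8% of all genes. With no filter 4489 of 36553 genes were called and with DESeq2 3719 of 36552, beside 3144 of 21314 in the main fit. With the stricter filter fewer genes were tested, and for the other differences the cause was not tested.

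Replicate numbers are not stated to pair the samples, and deviations from the genotype means correlated at -0.09, 0.04 and 0.02 between same-numbered libraries, so the numbers were not taken as pairs. With replicate number as a block, 2574 genes were called, Tnfrsf22 had a log2 fold change of 0.68 (adjusted p = 0.215), Birc2 (adjusted p = 0.0659) and Phlda2 (adjusted p = 0.0838) were not called, and not every library correlated best with its own number. Tnfrsf23, with 10 counts in all WT/WT and 43 in all KO/KO libraries, is limited by depth.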
